A study of Homo sapiens with 2 samples.

Results

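The 5 genes GSTO1, GPX1, HMOX1, CTH and CBS encode enzymes of glutathione use, heme breakdown and cysteine supply, and they were taken by their symbols in the platform annotation, 5 of the 14884 named genes on the array. They were chosen because earlier results of these data had shown their differences between the arrays, so their values are given as a description and with no test. Expression was measured in SNK6, a human natural killer/T-cell lymphoma line that carries Epstein-Barr virus and was grown with interleukin-2. One array held RNA of cells given romidepsin, which inhibits class I histone deacetylases, together with sildenafil, an inhibitor of the cyclic GMP phosphodiesterase PDE5, and the other held RNA of cells given romidepsin without sildenafil, both for 72 h. Every cell measured had therefore received romidepsin, and no untreated or sildenafil-only culture was analysed here. The sample titles abbreviate the drugs. The added one was taken to be sildenafil, which is the only other drug in the protocol, and the labels state no dose. Since each group holds 1 array, no value has a replicate error, and an effect of batch cannot be told apart from that of the drug.

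Glutathione is a small cysteine-containing peptide that keeps the cell's thiols reduced. Glutathione peroxidases spend it to reduce peroxides, and glutathione transferases join it to electrophiles or use it to reduce them. Its cysteine can be made from homocysteine by the transsulfuration pathway, in which CBS joins homocysteine to serine and CTH splits the product into cysteine. Heme oxygenase opens the heme ring to release iron, carbon monoxide and biliverdin. HMOX1 is a classic target of the stress-activated transcription factor NRF2, and CTH and CBS are often counted among genes that answer the amino acid stress factor ATF4.

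The regions just upstream of the start sites are shown for GSTO1, GPX1 and CTH, the members with a lower signal when sildenafil was added, and for CBS, whose enzyme acts just before CTH and whose signal lay the other way. The sequences are RefSeq's, build GRCh38.p14, from 250 bases before to 50 bases after the start, read 5' to 3' on the strand of the gene. Capitals mark the motifs searched for on both strands: the antioxidant response element core TGACNNNGC bound by NRF2, the ATF4 element core TGATGNAA, the E-box CACGTG, the CCAAT box CCAAT, the GC box GGGCGG and the TATA box TATAAA. All members but HMOX1 had an entry.
GSTO1 promoter, chr10:104254642-104254941, plus strand: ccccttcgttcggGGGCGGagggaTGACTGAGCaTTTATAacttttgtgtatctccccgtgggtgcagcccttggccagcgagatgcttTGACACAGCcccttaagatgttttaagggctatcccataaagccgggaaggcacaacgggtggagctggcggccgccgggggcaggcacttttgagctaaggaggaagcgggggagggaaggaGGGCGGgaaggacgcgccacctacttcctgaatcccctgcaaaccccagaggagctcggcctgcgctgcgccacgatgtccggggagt
GPX1 promoter, chr3:49358304-49358603, minus strand: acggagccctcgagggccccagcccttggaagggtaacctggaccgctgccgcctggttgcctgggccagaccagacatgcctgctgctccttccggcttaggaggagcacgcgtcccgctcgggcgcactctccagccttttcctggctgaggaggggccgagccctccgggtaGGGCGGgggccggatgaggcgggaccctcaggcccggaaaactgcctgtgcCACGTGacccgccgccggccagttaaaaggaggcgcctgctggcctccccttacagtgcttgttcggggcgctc
CTH promoter, chr1:70411018-70411317, plus strand: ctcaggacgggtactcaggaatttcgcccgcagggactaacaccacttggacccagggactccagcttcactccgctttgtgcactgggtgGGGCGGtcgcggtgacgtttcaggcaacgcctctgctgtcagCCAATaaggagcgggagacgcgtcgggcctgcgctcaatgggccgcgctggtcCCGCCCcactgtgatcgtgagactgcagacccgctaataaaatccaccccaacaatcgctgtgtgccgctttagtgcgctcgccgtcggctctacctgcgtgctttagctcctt
CBS promoter, chr21:43076328-43076627, minus strand: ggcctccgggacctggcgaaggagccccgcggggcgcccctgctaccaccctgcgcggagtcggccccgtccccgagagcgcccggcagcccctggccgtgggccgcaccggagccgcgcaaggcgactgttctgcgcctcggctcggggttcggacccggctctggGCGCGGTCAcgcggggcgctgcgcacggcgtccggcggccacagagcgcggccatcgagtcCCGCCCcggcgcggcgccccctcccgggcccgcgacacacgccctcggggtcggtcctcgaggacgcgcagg

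The GSTO1 window held the antioxidant response element core at 2 places, beginning 226 and 161 bases before the start, and 13.3% of all 35116 promoters of this length held at least 1. It also held the GC box at 2 places and the TATA letters on the opposite strand. The CTH window held the CCAAT box, present in 34.6% of promoters, 117 bases before the start, and GC boxes on both strands, a motif present in 45% of promoters. The GPX1 window held an E-box 24 bases before the start, a motif present in 7.26% of promoters, and 1 GC box. CBS has 3 listed start sites, of which the most upstream is shown. That window held the antioxidant core on the opposite strand 83 bases before the start, and the window of the next start held CCAAT at 2 places and the GC box at 4. The ATF4 core, found in 3.62% of promoters, was in none of these windows. No marked motif overlapped another. The GC content was 61.7% for GSTO1 and for CTH, 69.7% for GPX1 and 80.7% for the CBS window shown, beside a median of 58.7% over all promoters. The matches are letters in a window, and the arrays measured transcripts, not binding.

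Of the 5 members, 3 had a lower and 2 a higher signal in the culture with sildenafil, and only GSTO1 differed by at least 1.5-fold. Signals are the deposited values on a log2 scale, 1 number per probe set, and a difference is the value with sildenafil minus the value without. All 5 genes rest on a single probe set, and all lay on both arrays above 3.91, the median of all signals, which served as the filter on low values. Probe sets differ in how strongly they bind, so a higher signal of one probe set than of another is not read as more transcript. Over the 10081 named genes past the filter, 201 (1.99%) differed by at least 1.5-fold, 103 (1.02%) higher and 98 (0.972%) lower. That split depends on the scaling: 78 were higher and 116 lower after median centring, and 61 higher and 129 lower after lowess centring, which removes a trend with signal. Since the members were chosen on this contrast, nothing is read from their own count of 1 in 5 beside these shares.

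**Figure D1:**
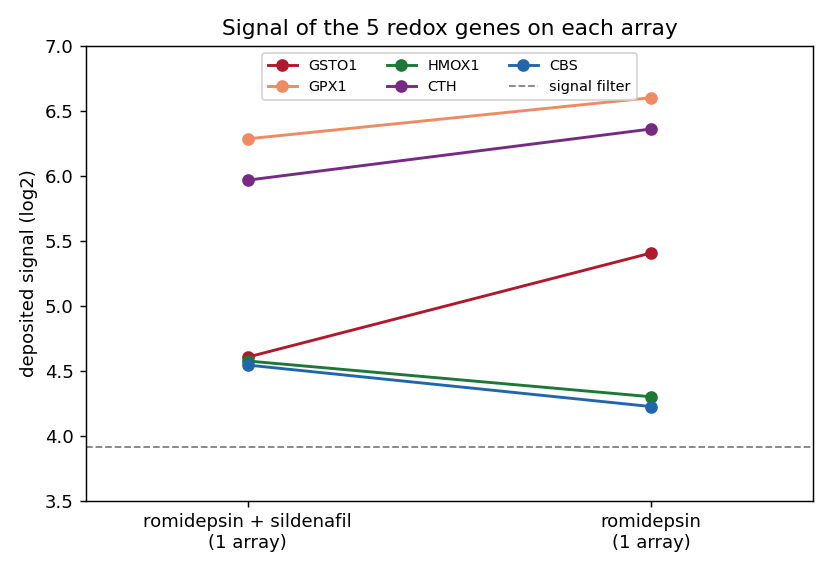
Deposited log2 signal (vertical axis) of GSTO1, GPX1, HMOX1, CTH and CBS on the array with sildenafil (left) and the array without (right), 1 point per array, with the signal filter as a dashed line. GSTO1, GPX1 and CTH lay lower on the array with sildenafil, HMOX1 and CBS higher, and GSTO1 had the steepest line (4.60 with sildenafil, 5.41 without).

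GSTO1 encodes an omega-class glutathione transferase, which carries a cysteine in its active site and acts as a thiol transferase and a dehydroascorbate reductase. Its signal was 4.60 with romidepsin plus sildenafil and 5.41 with romidepsin, a difference of -0.80 on the log2 scale. On the linear scale the signal with sildenafil was 1.74-fold lower. In RNA of a whole culture, fewer cells with the transcript and less of it per cell cannot be told apart. Because low and high signals scatter differently between arrays, each member was also placed among the 500 named genes nearest to it in mean signal. Of the 500 genes nearest to GSTO1, whose differences had an SD of 0.24, only 1 lay as low, and 4 were at least 1.5-fold lower and 2 at least 1.5-fold higher. Over all 10081 genes it ranked 28th from the lowest difference.

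GPX1 encodes the main cytosolic glutathione peroxidase, a selenoprotein that reduces hydrogen peroxide. Its signal was 6.28 with romidepsin plus sildenafil and 6.60 with romidepsin, a difference of -0.32, a change of -19.7% on the linear scale. The 500 genes of like signal had a median difference of -0.04 and an SD of 0.17, and 34 of them (6.80%) lay as low or lower. The central 95% of those genes ran from -0.40 to 0.29, so GPX1 lay inside the range of most genes of its brightness.

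HMOX1 encodes the inducible heme oxygenase. Its signal was 4.57 with romidepsin plus sildenafil and 4.30 with romidepsin, a difference of 0.28, or 1.21-fold higher. Of the 500 genes of like signal, 71 (14.2%) lay as high or higher. Those genes were themselves shifted upward, with a median difference of 0.07 and an SD of 0.24, and HMOX1 exceeded their median by 0.20. Its signal without sildenafil stood 0.39 above the filter.

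CTH, the gene of cystathionine gamma-lyase, had a signal of 5.97 with romidepsin plus sildenafil and 6.36 with romidepsin, a difference of -0.39, or 1.31-fold lower. Among 500 genes of like signal, with an SD of 0.18, 12 (2.40%) lay as low or lower. Their central 95% ended at -0.39, so CTH stood at the edge of that range. CBS, the gene of cystathionine beta-synthase, had a signal of 4.54 with romidepsin plus sildenafil and 4.22 with romidepsin, a difference of 0.32, or 24.8% higher. Here 58 of 500 genes of like signal (11.6%) lay as high or higher, and their median was 0.06. Its signal without sildenafil stood 0.32 above the filter, closer than that of any other member. The successive enzymes of transsulfuration thus differed in opposite directions, with a gap of -0.71 between their log2 differences (CTH minus CBS), and neither reached 1.5-fold. RefSeq lists a second protein-coding gene on chromosome 21, LOC102724560, with CBS and CBSL as synonyms, and no probe set was named for it. Whether the CBS probe set also binds transcripts of that copy was not tested.

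**Figure D2:**
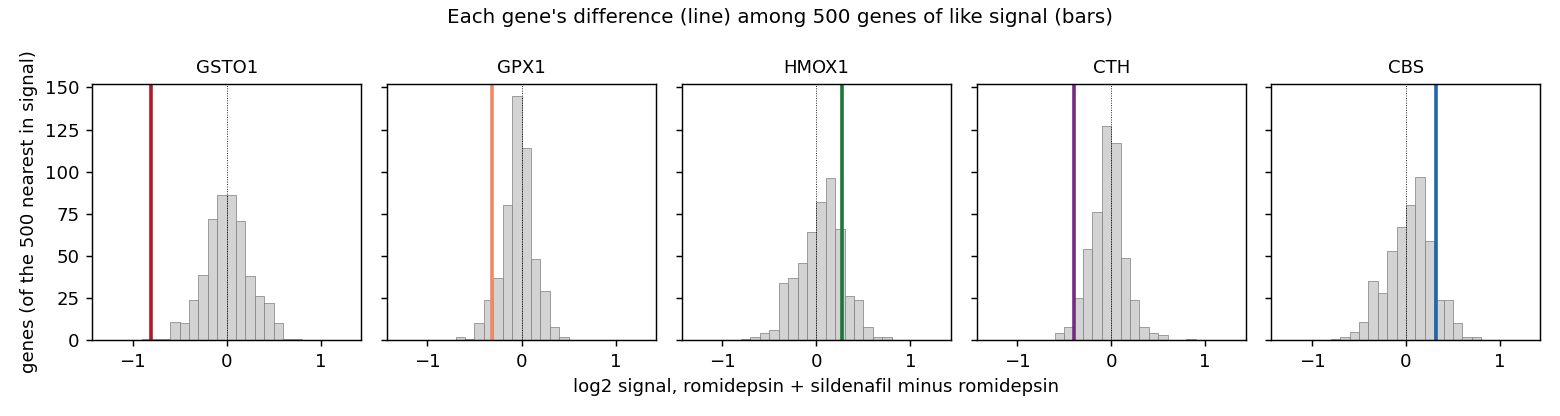
Each panel shows, for 1 of the 5 genes, how many of the 500 named genes nearest in mean signal (vertical axis) fell at each difference in log2 signal, sildenafil added minus romidepsin without it (horizontal axis), with the gene's own difference as a coloured line. The GSTO1 line at -0.80 stood at the edge of its bars, CTH at -0.39 in the lower tail, and GPX1, HMOX1 and CBS inside the spread of genes of like signal.

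The members' differences were not equally large beside the scatter of genes of like signal. Each difference was counted from 0, not from the median of those genes, and divided by their SD. The result was -3.29 for GSTO1, -2.15 for CTH, -1.88 for GPX1, 1.30 for CBS and 1.14 for HMOX1. Less the median of those genes, the log2 differences were -0.80 for GSTO1, -0.35 for CTH, -0.28 for GPX1, 0.26 for CBS and 0.20 for HMOX1. These are positions within a pair of arrays and not replicate errors. By Euclidean distance over the signals of both arrays, the genes most like GSTO1 were LOC653513 and USP20 (distances of 0.06 and 0.07), those most like GPX1 were RABGAP1L and SESN2 (0.02 each), and those most like CTH were KRTAP10-12 and TMEM181 (0.02 and 0.04). HMOX1 lay nearest to VAX2 and TEF (0.005 and 0.01), and CBS to CCND1 and MT1E (0.01 and 0.04). Each likeness rests on 2 values and is one of probe set signal, not of transcript amount.

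The 13 pathway lists held 232 genes besides the members, of which 158 were named on the array and 128 were past the filter, 122 of them on both arrays. Of the 128, 1 was at least 1.5-fold lower and 0 were at least 1.5-fold higher (0.781% together, beside 1.99% of all 10081 named genes past the same filter). With the filter met on both arrays it was 1 of 122 (0.82%), beside 106 of 9443 named genes (1.12%). The median difference of the 128 was -0.01, as for all genes past the filter (-0.01), with 60 genes higher and 67 lower. Of all 10081 genes past the filter, 47.2% were higher and 52.4% lower, shares to hold beside each list count below. As low as CTH lay 3 of the 128, all past the filter on both arrays, beside 370 of all 10081 genes (CTH not counted). As high as CBS lay 3 of the 128, beside 691 of the 10081 (CBS not counted). Of those 3, GSTT1 and GSTM1 reached the filter only on the array where they were higher, which leaves 1, MAFF. With the filter met on both arrays, 274 of 9443 named genes lay as low as CTH and 477 as high as CBS.

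Among the 13 other glutathione transferases and related enzymes past the filter, 7 were higher and 6 lower, with none at 1.5-fold. GSTO2, the closest relative of GSTO1, was near the filter at 3.93 with sildenafil and 4.02 without, a difference of -0.09. MGST3, a microsomal transferase and peroxidase, came nearest to GSTO1 in direction and size, with 5.10 with sildenafil and 5.66 without (-0.55), and 7 of its 500 neighbours in signal lay as low. The lower group also held the mu-class GSTM4 (4.93 with sildenafil and 5.33 without). GSTT1, of the theta class, differed the other way, with 4.23 with sildenafil and 3.66 without (0.57), and reached the filter level on the brighter array alone. The pi-class gene GSTP1 and the kappa-class gene GSTK1 were at -0.17 and -0.10. GSTM1 and GSTM2 were at 0.32 and 0.26. GSTM1, at 3.78 without sildenafil, was likewise past the filter only with it, and without GSTT1 and GSTM1 the count was 5 higher and 6 lower. The mu-class genes are alike enough in sequence that their probe sets may share signal.

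Of the other 5 peroxidase and reductase genes past the filter, none lay as low as GPX1, which was chosen with its difference known. Of all 10081 named genes past the filter, only 637 lay as low (GPX1 not counted). A count of none among 5 genes therefore does not set GPX1 apart from its family. GPX4, the selenoprotein that reduces lipid peroxides in membranes, had 8.74 with sildenafil and 8.62 without, a difference of 0.12. GSR, glutathione reductase, was at -0.09 and GPX7 at 0.26. GPX1 is a selenoprotein, and 14 genes of selenoprotein synthesis and other selenoproteins were past the filter. They lay between -0.18 (SELENOH) and 0.20 (SELENOO), with a median of -0.04. SELENOV reached the filter only without sildenafil. Their part in the GPX1 difference was not tested. The selenophosphate synthetase SEPHS2 was at -0.09 and SECISBP2, which binds the element that directs selenocysteine insertion, at -0.08.

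Among pathway genes past the filter, the only other one beyond 1.5-fold was in glutathione synthesis and turnover. GSTA2, an alpha-class transferase 1.65-fold lower with sildenafil, was below the filter on both arrays (1.98 with sildenafil and 2.70 without). It entered no count made with the filter. ESD, esterase D, which also hydrolyses S-formylglutathione, had 6.32 with sildenafil and 6.92 without, a difference of -0.60 or 1.51-fold lower, and 1 of 500 genes of like signal lay as low. It fell short of 1.5-fold after quantile normalization (-0.55) and lowess centring (-0.56). Both glyoxalases, which use glutathione to detoxify methylglyoxal, were lower as well. GLO1 had 9.88 with sildenafil and 10.26 without (-0.38), with 5 of 500 neighbours as low, and HAGH had 6.56 with sildenafil and 6.93 without (-0.37), with 14 as low. These genes belong to the pathway lists and were singled out after their values were seen. GSS, glutathione synthetase, was at -0.14 and GGCT, gamma-glutamylcyclotransferase, at -0.25. Of the 9 genes of this list past the filter, 6 were lower and 3 higher, with a median of -0.14. Over all genes 52.4% were lower and the median was -0.01.

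Of the 10 other genes of heme breakdown, transport and HMOX1 regulation past the filter, 6 were higher, 4 lower and none reached 1.5-fold. HPX and LRP1, both among the higher ones, reached the filter only with sildenafil, and of the 8 genes past it on both arrays 4 were higher and 4 lower, with a median of -0.00 in place of 0.03. HMOX2, the constitutive heme oxygenase, was at 0.05, and the biliverdin reductases BLVRA and BLVRB, which turn biliverdin into bilirubin, were at -0.01 and 0.07. NFE2L2, which encodes NRF2, was at -0.18, and KEAP1, its inhibitor, was at 0.01. MAFF, a small MAF partner of NRF2, was at 0.38 from a low signal (4.32 with sildenafil and 3.94 without). The 7 heme synthesis genes lay between -0.33 (PPOX) and 0.12 (UROD), with a median of 0.00. Of the NRF2 targets, 12 besides HMOX1 were past the filter, 4 higher and 8 lower, with a median of -0.04. Over all genes past the filter 52.4% were lower. SRXN1, sulfiredoxin, was at 0.21, TXNRD1, thioredoxin reductase, at 0.06, TXN at -0.14 and CBR3, past the filter only without sildenafil, at -0.32.

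Around CTH and CBS, which were chosen with their differences known, the other sulfur genes were close to level. The 8 further genes of transsulfuration and sulfide oxidation lay between -0.16 (SQOR, which oxidises sulfide in mitochondria) and 0.14 (the sulfurtransferase TST), and the sulfurtransferase MPST was at -0.07. In the methionine and folate cycle, AHCY, which releases homocysteine, was at 0.09 and methionine synthase (MTR) at 0.02. Of the 15 genes of that list past the filter, 10 were higher and 5 lower, with a median of 0.03. Among the genes of methionine salvage, MTAP was at -0.23, APIP at -0.22 and ENOPH1 at -0.21, while MRI1 was at 0.04 and ADI1 at 0.05. Of 16 further ATF4 targets past the filter 10 were lower and 6 higher, with a median of -0.02 (52.4% of all genes were lower). ASNS, asparagine synthetase, was at 0.03, TRIB3 at 0.07, DDIT3 at -0.07 and SESN2 at -0.29. Cystine import and glutamate-cysteine ligase genes were not analysed here.

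The thioredoxin and peroxiredoxin system, which works beside glutathione, held 18 genes past the filter, 10 higher and 8 lower. Of all genes past the filter, 47.2% were higher. The bright peroxiredoxins PRDX1, PRDX3 and PRDX6 were at -0.00, -0.10 and -0.02. The mitochondrial thioredoxin reductase TXNRD2 was lowest of the 18, with 5.39 with sildenafil and 5.75 without (-0.36). Of 4 genes of superoxide and peroxide removal past the filter, catalase (CAT) was higher, at 0.06, and 3 were lower, with a median of -0.11. All 3 genes of iron storage and uptake past the filter were lower, with a median of -0.13. Over all genes past the filter 52.4% were lower.

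**Figure D3:**
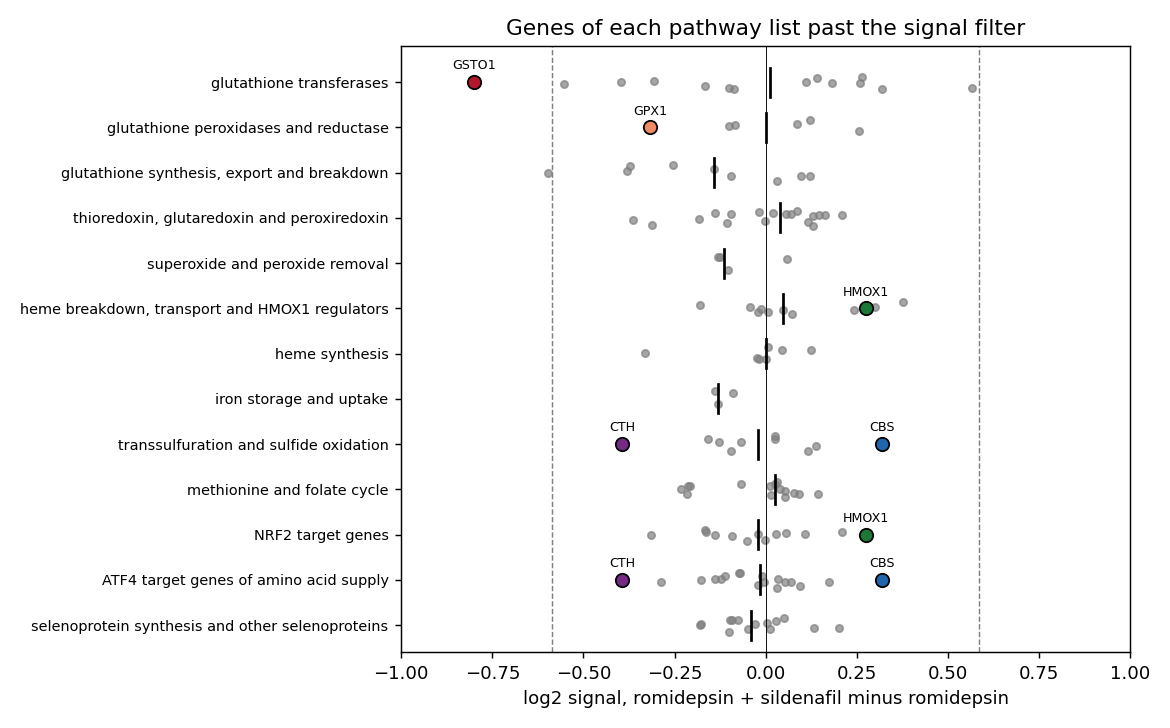
Difference in log2 signal, sildenafil added minus romidepsin without it (horizontal axis), for each gene past the filter in the 13 pathway lists (rows); grey points are single genes, named coloured points the 5 members, short black lines the medians of each list with its members, and dashed lines 1.5-fold. GSTO1 lay at -0.80, CTH and CBS lay at opposite ends of the transsulfuration genes (-0.39 and 0.32), and most list medians lay near 0. The members were chosen with these differences known, so nothing is read from their places at the ends of lists.

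Rescaling the arrays left the direction of all 5 members as it was. GSTO1 ranged from -0.83 to -0.79 and stayed beyond 1.5-fold, CTH from -0.42 to -0.35, GPX1 from -0.35 to -0.26, CBS from 0.26 to 0.32 and HMOX1 from 0.22 to 0.28, over the deposited values and 4 other settings. The ends nearest to 0 came with quantile normalization for the 3 lower genes and with lowess centring for both higher ones. Averaging probe sets could change nothing, since each member has 1.

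**Figure D4:**
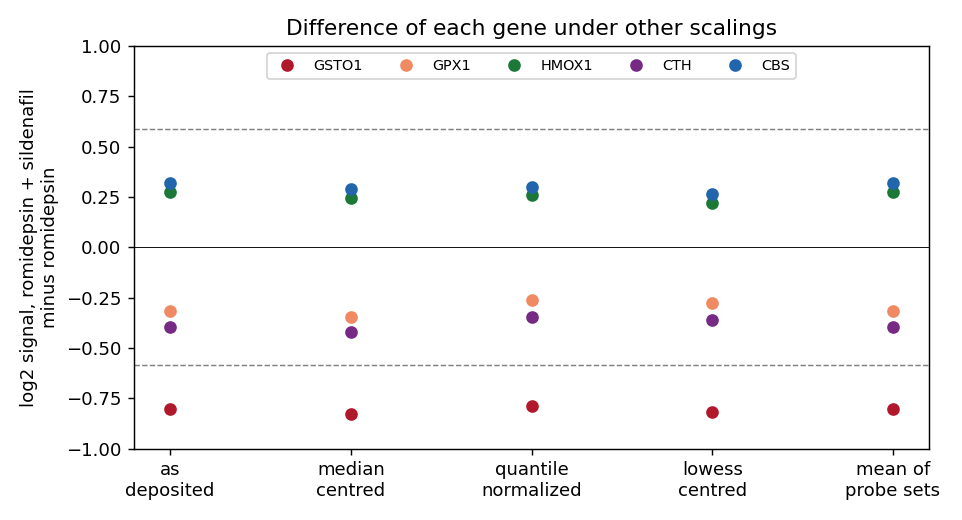
Difference in log2 signal, sildenafil added minus romidepsin without it (vertical axis), of the 5 genes as deposited and under 4 other settings (horizontal axis), with 1.5-fold as dashed lines. GSTO1 lay below the lower dashed line throughout (-0.83 to -0.79), and the other genes stayed between the dashed lines on their own side of 0.

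As a check on the cell label, 12 of the 13 named NK cell markers were past the filter, as were 67.7% of all named genes. PRF1 was at 8.81 with sildenafil and 8.83 without, NKG7 at 8.23 with sildenafil and 8.50 without, and NCAM1 at 6.54 with sildenafil and 6.63 without. NCR3 was nearer the filter (4.69 with sildenafil and 4.70 without), GNLY reached it on the array with sildenafil alone (3.82 without), EOMES was below it, and the CD3 genes were not analysed here. Past the filter were also 6 of 8 T cell, 3 of 4 B cell and 4 of 9 myeloid markers. So were 2 of 3 erythroid and 3 of 6 fibroblast and epithelial markers. Of these, VSIG4, KLF1 and KRT19 reached it on 1 array only. That leaves 3 myeloid, 1 erythroid and 2 fibroblast and epithelial markers past it on both arrays. Some markers outside the NK list had high signals. CD22, a B cell marker, had 7.37 with sildenafil and 7.46 without, the epithelial keratin KRT18 had 7.38 with sildenafil and 7.04 without, and the macrophage marker CD68 had 6.61 with sildenafil and 6.72 without. Passing the filter therefore does not by itself identify the cells. None of these markers differed by 1.5-fold, and their part in the members' differences was not tested.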

How the data were processed

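Total RNA of 2 SNK6 cultures was amplified with a whole-transcript kit and hybridised as biotin-labelled cDNA, per the labels' protocols. The authors deposited 1 column of log2 signals per array for 53617 probe sets; no base is stated, and 2 was inferred from the range of the values. How background was corrected and arrays normalized is not given in the sources used here. Both columns had medians of 3.92 with sildenafil and 3.89 without and, when sorted, differed by at most 0.15. A change shared by most transcripts could have been removed by normalization, so its presence or absence cannot be judged from these values.

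The platform annotation named 16098 probe sets; the brightest probe set stood for each of 14884 genes, and 10081 were past the filter on their brighter array. No test was possible with 1 array per group. Members and gene lists were chosen with earlier results of these data known; motifs were chosen with the promoters in view. The 5 members are described in full, any gene of the lists may be named, and the 2 nearest genes by signal are given. Scripts were tested on simulated data. Alternatives changed scaling, filter, probe sets, threshold and the number of like-signal genes. Python 3.11.15, numpy 2.4.6, pandas 2.3.3 and statsmodels 0.14.6 (lowess, span 0.3) were used.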

Additional observations from a re-analysis of the deposited data

How the results depend on the processing

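The number of arrays limits every value, and no signal over background is known. No paired analysis was possible because each group holds 1 array and the titles carry no replicate numbers. The differences of the 5 members moved by less than 0.1 under each scaling. Of all named genes, the count at least 1.5-fold higher was 103 as reported, 61 after lowess centring, 223 with no filter and 46 with the filter on both arrays; the count lower was 98 as reported, 156 with no filter and 60 with the filter on both arrays. At a looser threshold, a log2 difference of 0.32, 674 were higher and 609 lower, and at 2-fold 9 and 9. Of the members, 2 were lower at the looser threshold and 0 at 2-fold, against 1 at 1.5-fold. Of the other pathway genes, the single lower gene became 0 after quantile normalization or lowess centring, 2 with no filter, 7 at the looser threshold and 0 at 2-fold, and 2 were higher at the looser threshold. Of 91 recomputed list medians 88 moved by less than 0.1; the other 3 were all of the glutathione transferases (0.11 as reported), at -0.02 after median centring, -0.01 with no filter and -0.09 with the filter on both arrays, so that median has no settled sign. The share of like-signal genes as low as GSTO1 was 0.20% as reported and between 0.0993% and 0.50% under other windows; that of CTH reached 3.67% within its decile of signal.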
